A study of Rattus norvegicus with 6 samples.

Results

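The epithelial differentiation transcription factors described here, 10 genes that govern how stratified epithelium is built and renewed, were compared between rat peri-implant soft tissue and oral mucosa. They are Tp63, Klf4, Klf5, Grhl3, Elf3, Elf5, Ehf, Ovol1, Gata3 and Sox2, taken by symbol from the array annotation. Of these, 9 had at least 1 probe set named for the gene alone, among 14217 genes named on the array, with 17 probe sets in all. Ovol1 was not analysed here. Where a gene had several, the one that was brightest on average across the 6 arrays stands for it, and the others are given beside it.

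Male Sprague-Dawley rats, obtained at 4 weeks of age, lost both upper first molars, and tissue was taken 4 weeks after surgery. Peri-implant soft tissue (3 arrays) had healed around a titanium alloy implant in the left socket, and oral mucosal tissue (3 arrays) had healed over the right socket, which had no implant. All arrays therefore came from extraction sites of the same age, and tissue and side of the mouth cannot be told apart. Whether the 3 samples of a tissue are from separate rats is not stated, so p-values reflect sample-to-sample spread that could be technical. Values are log2 signals on which an interval of 1 is a doubling, and medians of the arrays lay between 6.62 and 6.78. All 10 measured markers of stratified epithelium were bright in both tissues, and Krt14, a keratin of basal cells, averaged 15.71 ± 0.33 in peri-implant tissue and 15.95 ± 0.44 in mucosa (SD, n = 3 each).

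In stratified epithelium p63 (Tp63) maintains the proliferating basal layer and its adhesion to the matrix. The zinc finger protein KLF4, the Grainyhead-like protein GRHL3 and OVOL1 act as cells leave that layer and form a barrier. KLF5, also a zinc finger protein, drives proliferation of basal and transitional cells. ELF3, ELF5 and EHF are the epithelium-specific branch of the ETS family and are found in secretory, glandular and differentiating epithelia. GATA3 serves both skin keratinocytes and T lymphocytes, and SOX2 marks the lining of the foregut and tongue, taste progenitors and Merkel cells.

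RefSeq promoters on the rat GRCr8 build, from 250 bases before to 50 bases after the transcript start, were held for 7 of the 10 genes. Elf5, Ehf and Ovol1 are not among them. The promoters were searched on both strands for an NF-kB type motif (GGG, any 2 bases, TT, any base, CC) and a STAT type motif (TTCNNNGAA), the binding letters of factors active in inflamed tissue. The 3 that held a match are shown, with the match in capitals. They belong to Elf3, the most raised factor, to Klf5, and to Klf4, the lowered one. Elf3 lies at chr13:49247037-49247336 on the minus strand, Klf5 at chr15:82471831-82472130 on the plus strand, and Klf4 at chr5:75078543-75078842 on the minus strand.
Elf3: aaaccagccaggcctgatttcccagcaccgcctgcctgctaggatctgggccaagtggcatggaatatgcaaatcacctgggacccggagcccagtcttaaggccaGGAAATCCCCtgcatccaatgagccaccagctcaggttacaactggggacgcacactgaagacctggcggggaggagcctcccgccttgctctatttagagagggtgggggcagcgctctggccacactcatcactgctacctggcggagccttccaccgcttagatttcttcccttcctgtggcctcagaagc
Klf5: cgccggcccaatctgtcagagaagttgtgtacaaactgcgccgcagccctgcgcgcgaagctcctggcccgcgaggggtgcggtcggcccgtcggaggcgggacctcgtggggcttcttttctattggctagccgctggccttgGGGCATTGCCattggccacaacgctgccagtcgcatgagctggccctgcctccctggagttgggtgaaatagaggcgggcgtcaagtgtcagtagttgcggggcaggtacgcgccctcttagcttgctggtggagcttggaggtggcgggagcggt
Klf4: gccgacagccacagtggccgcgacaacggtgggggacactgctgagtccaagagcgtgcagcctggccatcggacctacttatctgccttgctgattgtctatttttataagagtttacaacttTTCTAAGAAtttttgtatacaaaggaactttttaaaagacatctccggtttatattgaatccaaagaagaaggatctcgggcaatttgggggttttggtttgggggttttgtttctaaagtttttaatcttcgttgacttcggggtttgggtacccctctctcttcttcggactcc
The Elf3 match covered bases 107 to 116 and the Klf5 match bases 145 to 154, both of the NF-kB type. As printed, the Elf3 match is the reverse complement of the motif, and the Klf5 match reads directly. The Klf4 match covered bases 125 to 133 and was of the STAT type. No match shown in capitals overlapped another motif searched. Of all 33469 promoters of this length, 5.00% held the NF-kB type letters and 8.87% the STAT type letters. The ETS core GGAAG occurred 3 times in Elf3, 3 times in Tp63, once each in Grhl3 and Gata3, and in 70.1% of all promoters. The KLF type motif CACCC was present in 5 of the 7 and in 54.9% of all promoters. The Grainyhead motif AACNGGTT and the AP-1 motif TGANTCA were in none of the 7, against 2.10% and 7.33% of all promoters. These matches describe the letters only.

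Peri-implant tissue had a 4.07-fold higher signal of Elf3 and a 3.72-fold higher signal of Elf5 than mucosa. Sox2 was 1.69-fold higher, and Klf5 and Grhl3 were higher by 1.20-fold and 1.22-fold. Klf4 was 1.28-fold lower. Tp63 and Ehf did not pass the test, and Gata3 was too dim to be tested. Of the 8 factors tested, 5 were called higher and 1 lower at an adjusted p under 0.05 in limma, while over all 10585 genes tested 26.1% were called, 15.2% higher and 11.0% lower. In 7 of the 8 no array of one tissue reached into the range of the other, against 41.9% of all genes. The median difference of the 8 was 0.28 on the log2 scale, and that of all genes 0.035. With every array centred on the mean of its 10 epithelial markers, 5 factors were called higher and 0 lower. Over all genes 2289 were then called higher and 368 lower in place of 1606 and 1161. Of the 10 markers, 6 were themselves called lower as deposited, and this centring moved the median difference of all genes to 0.27.

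**Figure D1:**
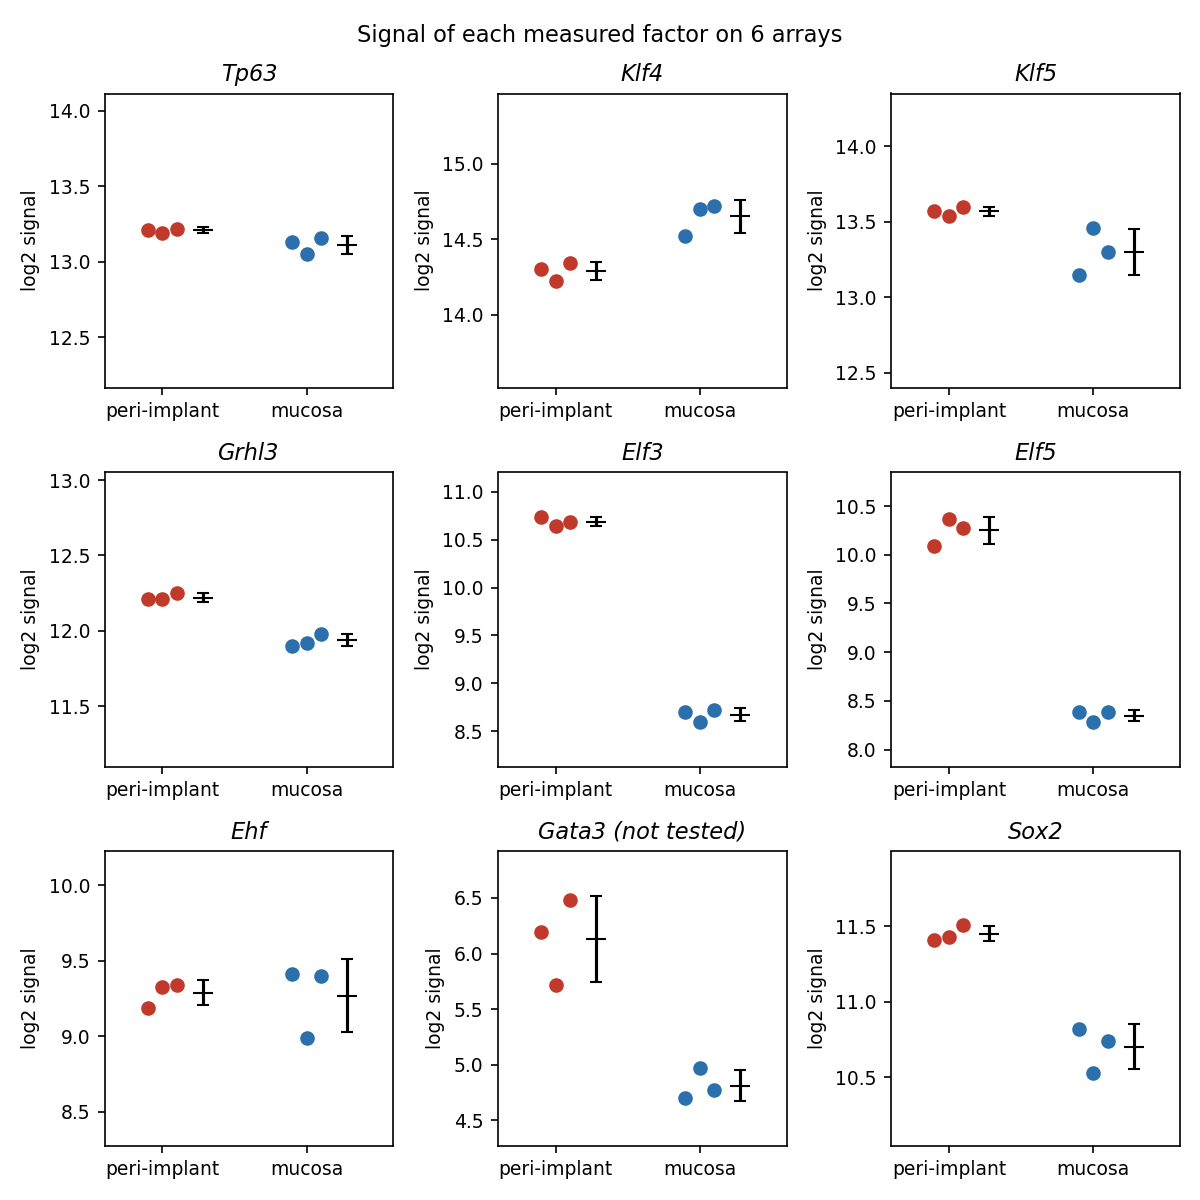
Log2 signal (vertical axes, each panel with its own range) of the 9 measured factors on the 3 peri-implant arrays (left, red) and the 3 mucosal arrays (right, blue), with mean and SD in black. The Elf3 and Elf5 groups lie 2.02 and 1.89 apart, those of Ehf overlap, and Klf4 is the factor with lower peri-implant values.

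Elf3, which encodes an ETS factor of barrier and mucosal epithelia, read 10.74, 10.64 and 10.69 in peri-implant tissue, against 8.70, 8.59 and 8.72 in mucosa. Every peri-implant array was far above every mucosal one. The difference was 2.02 on the log2 scale (standard error of the fit, SE, 0.09), or 4.07-fold (limma adjusted p = 6.33e-09). A larger rise was seen in 1.53% of the genes tested.

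Elf5, best known as the ETS factor of mammary alveolar cells and of salivary and other glandular epithelia, read 10.09, 10.37 and 10.27 in peri-implant tissue, against 8.39, 8.28 and 8.39 in mucosa. The groups were again wide apart, and the spread within each was small beside the gap. The difference was 1.89 (SE 0.11), or 3.72-fold (limma adjusted p = 6.25e-08), and 1.83% of genes rose more.

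Ehf, the remaining ETS factor of this branch, read 9.19, 9.33 and 9.34 in peri-implant tissue, against 9.41, 8.99 and 9.40 in mucosa. The groups overlapped, and the difference was 0.02 (SE 0.13; limma adjusted p = 0.927). Ehf and Elf5 are next to each other in the RefSeq gene order of the rat. Their flanking genes were Apip, with a difference of 0.11 (SE 0.12), and Cat, which encodes catalase, at -0.06 (SE 0.08), and neither passed the test (limma adjusted p = 0.556 and 0.646). Beside Elf3, the aminopeptidase gene Rnpep was called higher by 0.96 (SE 0.09; limma adjusted p = 3.53e-06) and Gpr37l1 was not called (-0.71, SE 0.41).

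Within each array, the Elf3 signal relative to that of Ehf was higher in peri-implant tissue by 2.00, and the Elf5 signal relative to Ehf by 1.87. In both pairs the 3 peri-implant arrays did not overlap the 3 mucosal arrays (exact permutation test, two-sided, p = 0.1, the smallest possible for 3 against 3, and 0.133 after Benjamini-Hochberg adjustment over 4 pairs). Elf3 relative to Elf5 differed by 0.13 and overlapped (exact permutation p = 0.4). Klf5 relative to Klf4 was higher by 0.63 without overlap (exact permutation p = 0.1, adjusted 0.133).

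Sox2, the SOX-family factor of foregut and taste progenitors, read 11.41, 11.43 and 11.51 in peri-implant tissue, against 10.82, 10.53 and 10.74 in mucosa. All peri-implant arrays were above all mucosal arrays, by 0.75 on average (SE 0.09), or 1.69-fold (limma adjusted p = 3.12e-05). Its other probe sets differed by 0.71 (SE 0.16; limma adjusted p = 0.00697), by 0.48 (SE 0.19; limma adjusted p = 0.0936) and by -0.56. The last was dim in both tissues, with arrays between 0.00 and 5.86, and was not tested. Averaged over its probe sets, that dim one included, the Sox2 difference was 0.35 and did not pass (limma adjusted p = 0.559).

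Markers of Merkel and taste cells, which also use Sox2, were measured for 6 genes. Of the 3 tested, 1 was called higher and 0 lower, against 15.2% and 11.0% of all genes tested. The marker called higher was Isl1, a LIM-homeodomain factor, at 8.35 ± 0.26 in peri-implant tissue and 5.91 ± 0.61 in mucosa. Krt20, a Merkel cell keratin, averaged 7.57 ± 0.31 in peri-implant tissue and 7.93 ± 0.33 in mucosa. The taste genes Gnat3 and Tas1r3 and the neuroendocrine granule gene Chga were dim in both tissues. The summed linear signal of the 6 markers was 585 to 729 in peri-implant tissue and 361 to 435 in mucosa. Without Isl1 the sum was 293 to 405 in peri-implant tissue and 267 to 380 in mucosa. Isl1 was left out because of its call, and the markers kept were not called or not tested. That these sums overlapped was therefore largely fixed beforehand. The part of these cells in the Sox2 difference was not tested. In tissue RNA of this kind, fewer cells of a type and less RNA per cell cannot be told apart.

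Klf5, which drives proliferation of basal and transitional epithelial cells, read 13.57, 13.54 and 13.60 in peri-implant tissue, against 13.15, 13.46 and 13.30 in mucosa. The nearest arrays of the groups were close, at 13.54 in peri-implant tissue and 13.46 in mucosa. The difference was 0.27 (SE 0.09), or 1.20-fold, just past the threshold (limma adjusted p = 0.0399). A probe set of Klf5 with the next highest signal differed more, by 0.62 (SE 0.08; limma adjusted p = 1.19e-04). Those at 10.71 and 7.71 on average differed by 0.12 and 0.06 and overlapped between groups (limma adjusted p = 0.350 and 0.854).

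The call for the brightest Klf5 probe set was lost in 8 of the 15 alternatives that used it, among them the omission of any 1 of 5 arrays. Without peri-implant array 1, 2 or 3 the limma adjusted p was 0.105, 0.0977 and 0.104, and without mucosal array 1 or 3 it was 0.145 and 0.0659. Over the alternatives on this probe set the adjusted p ran from 9.83e-04 to 0.158.

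Grhl3, a Grainyhead-like factor needed for the skin barrier in mice, read 12.21, 12.21 and 12.25 in peri-implant tissue, against 11.90, 11.92 and 11.98 in mucosa. The arrays within a group were close and the groups were apart. The difference was 0.29 (SE 0.07), or 1.22-fold (limma adjusted p = 0.00715). The call was lost with median centring and without the variance trend (limma adjusted p = 0.0864 and 0.0709, within a range of 8.48e-04 to 0.0864).

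Klf4, which in mouse skin is required for barrier formation, read 14.30, 14.22 and 14.34 in peri-implant tissue, against 14.52, 14.70 and 14.72 in mucosa. Every peri-implant array was below every mucosal one. Klf4 fell by 0.36 (SE 0.09), or 1.28-fold (limma adjusted p = 0.0102). Its signal lay at least 1.72 below the highest of each array. Without peri-implant array 2 the difference was -0.33 and was not called (limma adjusted p = 0.0679), nor was it without the variance trend (adjusted p = 0.0629). Centred on epithelial markers it was -0.12 (limma adjusted p = 0.419, the upper end of a range that began at 0.00266).

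Tp63, the basal layer regulator, read 13.21, 13.19 and 13.22 in peri-implant tissue, against 13.13, 13.05 and 13.16 in mucosa. The groups did not overlap but lay close, and the difference of 0.09 (SE 0.07) did not pass the test (limma adjusted p = 0.397). The other Tp63 probe set read 7.83, 7.91 and 7.74 in peri-implant tissue, against 6.99, 7.49 and 7.13 in mucosa. Its difference of 0.63 (SE 0.22) missed the threshold (limma adjusted p = 0.0545). With the mean of both probe sets Tp63 was called higher by 0.36 (limma adjusted p = 0.0078), and with quantile normalisation the brighter one was called higher by 0.18 (adjusted p = 0.0188), while the highest adjusted p was 0.713.

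Gata3, a GATA factor of keratinocytes and of T helper and innate lymphoid cells, read 6.19, 5.72 and 6.48 in peri-implant tissue, against 4.70, 4.97 and 4.77 in mucosa. The groups were apart, but the mean over 6 arrays, 5.47, was below 5.68, the 40th percentile of probe set means that served as a filter, so the gene was not tested. Its mucosal mean was also under 5.90, the 40th percentile of all single values, below which a signal is called dim. The difference was 1.32 as deposited and 0.29 with values raised to that floor, and without the filter it did not pass (limma adjusted p = 0.176). The other Gata3 probe set was dim in both tissues.

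Of 15 measured markers of T cells and innate lymphoid cells, 9 passed the filter and were called higher, against 15.2% of all genes tested. Of the 9 markers, Cd3e and Cd5 were dim in mucosa and passed through their peri-implant signal. With the filter at the 60th percentile 2 markers were called higher. The summed linear signal of all 15 was 2640 to 2800 in peri-implant tissue and 814 to 988 in mucosa. Cd3g, a chain of the T cell receptor complex, averaged 8.54 ± 0.09 in peri-implant tissue and 6.24 ± 0.16 in mucosa. Cd4, Cd28, Cd6 and Il1rl1 were dim in both tissues, and no marker of the list stood at 0 on any array. The part of T cells in the Gata3 difference was not tested.

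**Figure D2:**
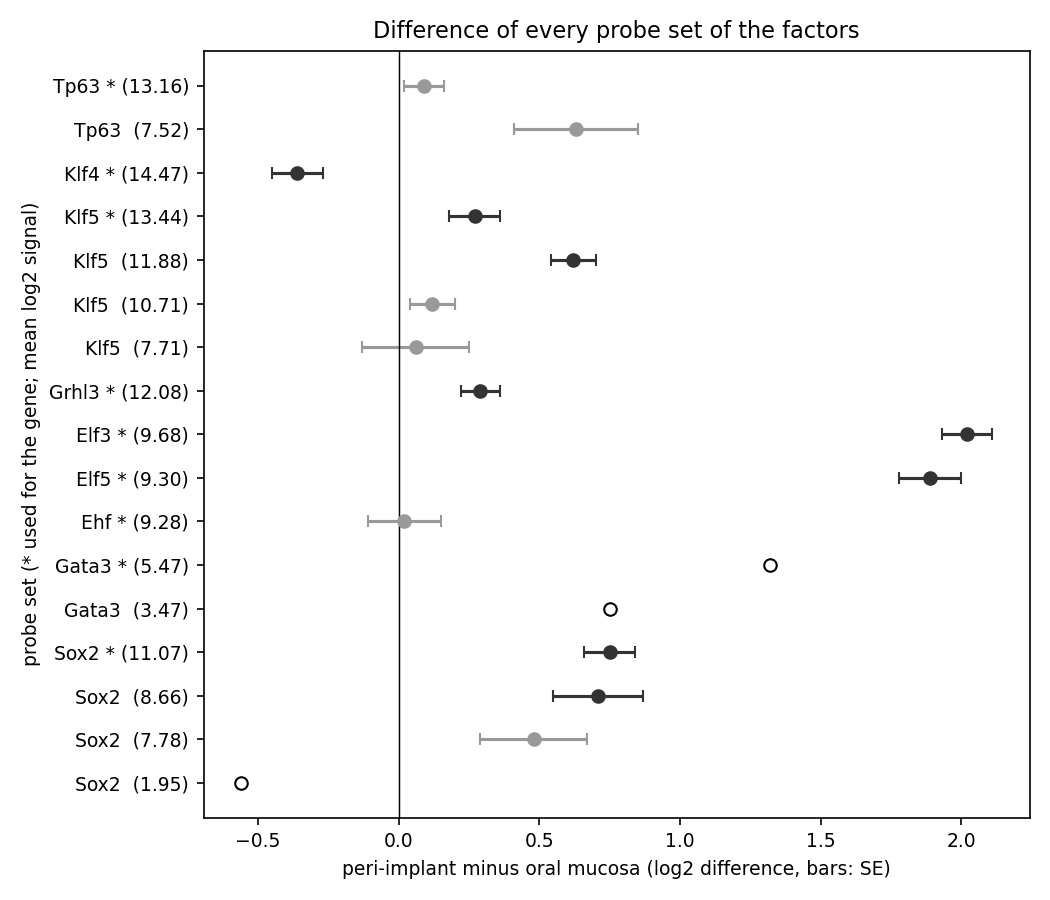
Difference between peri-implant tissue and mucosa (horizontal axis, log2) for all 17 probe sets of the 9 measured factors, with SE bars; the mean signal stands in brackets and a star marks the probe set used. Dark points passed the test, grey points did not, and open points were not tested. The probe sets of Klf5 range from 0.06 to 0.62, and those of Sox2 that were tested from 0.48 to 0.75.

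The genes most like Elf3 over the 6 arrays, by the root mean square distance of log2 profiles centred on their own mean, were Fcer1g (0.0662), Aldh3a1 (0.0751) and Ceacam1 (0.0898). Fcer1g, the Fc receptor gamma chain of myeloid cells, averaged 12.21 ± 0.05 in peri-implant tissue and 10.22 ± 0.12 in mucosa. Aldh3a1, an aldehyde dehydrogenase abundant in cornea, averaged 10.85 ± 0.06 in peri-implant tissue and 8.70 ± 0.13 in mucosa. Ceacam1, an adhesion molecule of epithelia and leukocytes, averaged 11.64 ± 0.03 in peri-implant tissue and 9.55 ± 0.09 in mucosa. For Klf4 the nearest genes were Ahcyl2 (0.0301), Agfg1 (0.0333) and Snapc3 (0.0335), with differences of -0.31, -0.39 and -0.30.

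Among 34 tested genes of 36 measured for other transcription factors of epithelium, 6 were called higher, 9 lower and 19 did not pass, with a median difference of -0.07. The shares over all genes tested were 15.2% higher and 11.0% lower. Centred on epithelial markers, 7 were called higher and 3 lower, and without the variance trend 4 each way. Maf, which takes part in terminal keratinocyte differentiation, averaged 12.25 ± 0.08 in peri-implant tissue and 13.50 ± 0.24 in mucosa and fell by 1.25 (limma adjusted p = 1.73e-06). The nuclear receptor gene Rora fell by 1.10 and Cebpa, a differentiation factor of the C/EBP family, by 0.71. Those called higher were Runx1 (0.88), Sox15 (0.62), Foxq1 (0.56), Id3 (0.43), Pax9 (0.39) and Grhl1 (0.38). Grhl1, the close relative of Grhl3, averaged 12.30 ± 0.13 in peri-implant tissue and 11.92 ± 0.04 in mucosa. Foxa1 and Spdef, factors of glandular and goblet cells, were dim in both tissues.

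In a list of basal and adhesion genes linked to p63, 14 of 25 tested genes were called lower and 2 higher, with a median difference of -0.44, while Tp63 itself did not pass. Over all genes tested, 11.0% were called lower and 15.2% higher. Col17a1, a collagen of hemidesmosomes, fell by 1.49, its linker gene Dst by 1.23 and the anchoring fibril gene Col7a1 by 1.51. Those called higher were Krt15, a basal keratin, by 3.65 and Cdh3, P-cadherin, by 0.48 (SE 0.10).

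Terminal differentiation and barrier genes, the setting in which Klf4 and Grhl3 act, were called lower for 10 of 26 tested and higher for 5, with a median difference of -0.23. Among all genes tested, 11.0% were called lower and 15.2% higher. Lce1f, a late cornified envelope gene, averaged 12.74 ± 0.10 in peri-implant tissue and 13.66 ± 0.10 in mucosa, and the desmosomal cadherin Dsc1 fell by 0.85. Those called higher were Krt1 (1.14), Sprr3 (1.14), Sprr2d (1.10), Scel (0.33) and Ocln (0.23). Centred on epithelial markers, 9 were called higher and 7 lower, and with quantile normalisation 9 were called higher and 11 lower. The number called higher was 3 with median centring, without the variance trend, without peri-implant array 2 or 3, or without mucosal array 1 or 2.

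Secretory and simple epithelial genes of the kind linked to Elf3, Elf5 and Ehf were called higher for 17 of 23 tested, of 28 measured, and lower for 3, with a median difference of 2.07. Over all genes tested, 15.2% were called higher and 11.0% lower. This list was drawn up with earlier results of these samples known and is not independent evidence of its direction. Krt4 and Krt7, keratins of non-keratinised and simple epithelia, were higher by 3.12 and 2.12. Scgb1a1, an airway secretoglobin, and Lpo, lactoperoxidase, were higher by 3.45 and 2.16. Upk1b, Lcn2, Cldn10 and Tspan1, also called higher, were dim in mucosa and passed the filter through their peri-implant signal. With the filter at the 60th percentile, 12 genes of the list were called higher and 2 lower. Those called lower were the water channels Aqp5 (-1.90) and Aqp3 (-0.43) and the protease inhibitor Slpi (-0.59). Aqp5 averaged 5.99 ± 0.66 in peri-implant tissue and 7.89 ± 0.17 in mucosa.

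Salivary and airway markers were measured for 10 genes, of which 2 were called higher and 1 lower among 5 tested. The shares over all genes tested were 15.2% higher and 11.0% lower. Amy1, Pip, Prb1, Bpifa1, Bpifa2 and Tff3 were dim in both tissues. The summed linear signal of the 10 markers was 3590 to 3620 in peri-implant tissue and 591 to 733 in mucosa. Without the 2 called higher, Scgb1a1 and the cytochrome P450 gene Cyp2f4, it was 272 to 388 in peri-implant tissue and 459 to 557 in mucosa. These 2 were left out because of their calls, which lowers the peri-implant sum by construction. Aqp5, the 1 called lower, was kept, at 5.99 ± 0.66 in peri-implant tissue and 7.89 ± 0.17 in mucosa. The direction of the reduced sum is therefore no independent result. Cyp2f4 was dim in mucosa and passed the filter through its peri-implant signal. The part of such cells in the Elf3 and Elf5 differences was not tested.

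Of 15 tested genes of epithelial identity and of its mesenchymal repressors, 7 were called higher and 1 lower, with a median difference of 0.34. All genes tested gave 15.2% higher and 11.0% lower. Centred on epithelial markers, 9 were called higher and 0 lower. Cdh1 and Epcam of this list are among the centring markers, so those counts are not independent of the centring. St14, the membrane protease matriptase, was higher by 0.62, its inhibitor gene Spint1 by 0.51 and Epcam by 0.42. The others called higher were Cldn7, Cdh1 and Ap1m2 on the epithelial side and Fn1, which encodes the matrix protein fibronectin, on the mesenchymal side, at 10.55 ± 0.06 in peri-implant tissue and 10.20 ± 0.07 in mucosa (limma adjusted p = 0.00681). Esrp1, an epithelial splicing regulator, fell by 0.51. The repressors of the epithelial state Zeb1, Zeb2, Snai1 and Twist1 were tested and did not pass, with differences of 0.69, 0.18, -0.25 and 0.00.

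**Figure D3:**
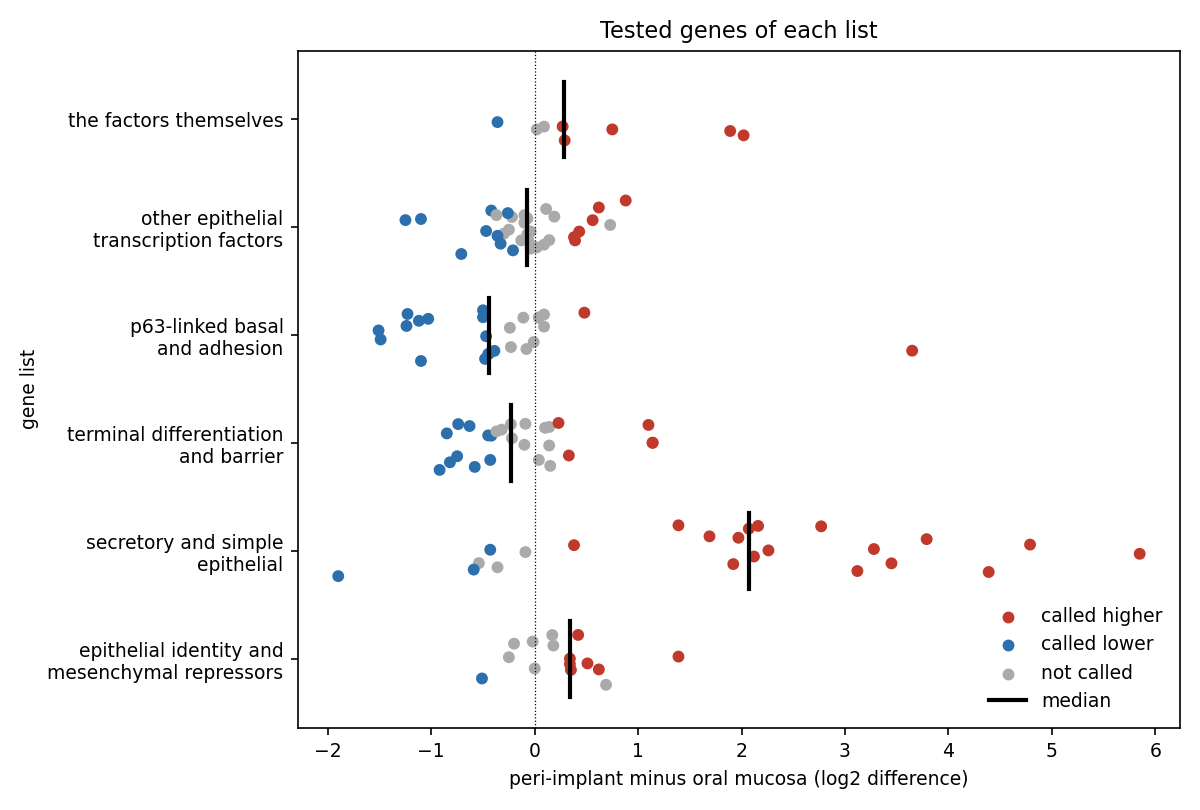
Difference between peri-implant tissue and mucosa (horizontal axis, log2) for each tested gene of the factors and of 5 related lists; red was called higher, blue lower and grey not called, and black bars are medians. Medians run from -0.44 for p63-linked genes to 2.07 for secretory and simple epithelial genes.

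Markers of stratified epithelium moved both ways. Of the 10 tested, 6 were called lower and 2 higher, against 11.0% and 15.2% of all genes tested. The mean log2 signal of the 10 markers was 14.69 to 14.95 in peri-implant tissue and 14.83 to 15.14 in mucosa. The number of these markers called lower was 2 without peri-implant array 1 or 2, or without mucosal array 2 or 3. Jup, plakoglobin, fell by 0.47, while Cdh1, E-cadherin, was higher by 0.34. Centring on these markers moved the median difference of all genes to 0.27, against 0.03 as deposited. On that scale the differences of Elf3 and Elf5 were 2.26 and 2.13, that of Sox2 was 0.99 and that of Ehf 0.26, of which Ehf was not called (limma adjusted p = 0.378). Macrophage and monocyte markers were called higher for 10 of 11 tested genes, against 15.2% of all genes tested. The summed linear signal of these markers was 15900 to 16400 in peri-implant tissue and 6520 to 6820 in mucosa. Among those called, Adgre1 was dim in mucosa and passed the filter through its peri-implant signal. Fibroblast markers were called lower for 7 of 9 tested and higher for 1, against 11.0% and 15.2% of all genes tested. The part of these cells in the differences of the factors was not tested.

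**Figure D4:**
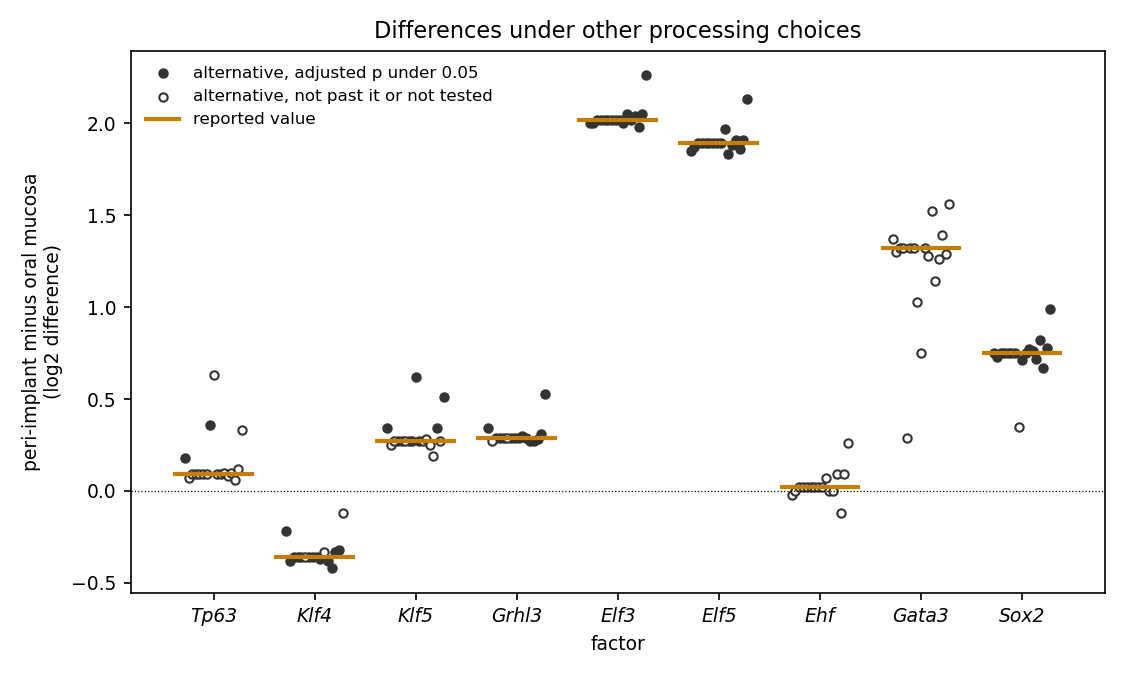
Difference between peri-implant tissue and mucosa (vertical axis, log2) of each factor as reported (orange line) and under each alternative (points, filled where the adjusted p was under 0.05). Elf3 and Elf5 stay between 1.83 and 2.26 with every point filled, while Klf5 has points of both kinds.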

How the data were processed

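Per the labels' protocols, biotin-labelled RNA was made with a 3' in vitro transcription kit, for 6 samples on 1 array each. The deposited table held log2 signals for 31099 probe sets, 57 of them array controls. The authors had scaled each array before deposit: all 6 shared a linear mean of 500.2 after 2% of values were trimmed from either end. Their software and background method are not given in the sources read.

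Values were used as deposited. The 18625 probe sets with a mean above the 40th percentile (5.68) entered a two-sided limma 3.58.1 fit in R 4.3.3 of 3 arrays against 3, in which eBayes used a variance trend. Benjamini-Hochberg adjustment ran over all of them, with a threshold of 0.05. A probe set is called dim in a tissue where its mean over the 3 arrays was below 5.90, the 40th percentile of all single values. Symbols came from the array's annotation, in which 20826 probe sets had 1 symbol and 436 several. Alternatives changed the normalisation, the filter, a floor, the variance model, the probe set, a replicate block or the arrays included. The 6 arrays limit the precision. Permutation tests used SciPy 1.17.1.

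Genes named were all factors, up to 4 called genes of smallest p per list, called genes against the majority of their list, and the 3 nearest profiles of the most raised and the most lowered factor. Neighbouring genes, marker genes, Fn1, Cldn7, Cdh1, Ap1m2 and list genes named for a dim signal were named after their values were seen. The 4 pairs of factors compared within arrays were not set in advance. Of 268 list genes, 225 matched, 4 by synonym. The factors and lists were chosen with earlier results of these data known.

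Titles number samples 1 to 3 in both groups. Deviations of same-numbered arrays correlated at 0.013, -0.0789 and 0.0272, so the numbers were not taken as pairs. In a simulation of this comparison on 18625 probe sets, with 50 altered per size, 32% were recovered at a log2 difference of 0.5, 46% at 1 and 82% at 2. There were 7 false calls among 18425 unchanged probe sets. The share altered was far below the 26.1% of genes called in the data, so recovery in the data may differ. The altered probe sets were drawn at random from all those tested, at any signal level. Recovery at the signal levels of the factors was not simulated separately.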

Additional observations from a re-analysis of the deposited data

How the results depend on the processing

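Elf3 and Elf5 passed the threshold under all 16 alternatives run for each, and Sox2 under 16 of 17. Called differences kept their sign throughout, and 214 of 238 counts of factors, related lists and all genes were within 1.5 times the reported ones, as were 185 of 204 counts over the 6 marker lists described. With the filter at the 60th percentile 2 T cell, 0 Merkel and taste and 1 salivary markers were higher and 0 salivary markers lower. Stratified epithelium markers called lower were 3 without a filter or with values raised to the floor, 2 without the variance trend, 2 centred on those markers and 2 to 7 with 1 array left out. Without the variance trend, 3 factors were called higher and 0 lower, other epithelial factors lower in 4, p63-linked genes higher in 1, barrier genes higher in 3, secretory genes lower in 1, epithelial identity genes higher in 4, and all genes lower in 718. With median centring 3 factors and 3 barrier genes were higher, and with quantile normalisation 9 barrier genes. With the mean of the probe sets 5 other epithelial factors were lower. Centred on epithelial markers, a choice made after the data were seen, 0 factors, 3 other epithelial factors, 9 p63-linked genes, 0 identity genes and 368 of all genes were lower, and 9 barrier genes higher. This centring makes the mean of the stratified epithelium markers equal on all arrays, so their count on that scale was partly fixed beforehand. The p63-linked list shares Krt5, Krt14, Perp, Pkp1 and Sfn with these markers, and the identity list shares Cdh1 and Epcam. Leaving out 1 array gave 0 to 1 factors lower (0 without peri-implant array 2), 3 to 5 barrier genes higher and 1 to 4 secretory genes lower (1 without peri-implant array 2). The replicate block left 5 factors higher and 1 lower (Elf3 2.02, adjusted p = 4.02e-08) and changed no call of a factor. The causes of these changes were not tested. Dim signals limit Gata3 and 1 probe set of Sox2. A pseudocount was not needed, since the table was on a log scale.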
